A study of Caenorhabditis elegans with 12 samples.

Results

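The 36 genes described here encode nuclear subunits of the mitochondrial respiratory chain and ATP synthase of Caenorhabditis elegans. They were chosen by name, as the nuclear-encoded subunits of complexes I to V and cytochrome c on a fixed list of WormBase symbols, and all 36 were found among the 46748 genes of the count table through their WormBase gene identifiers. Complex I had 8 of them, complex II 4, complex III 6, cytochrome c 2, complex IV 7 and complex V, the ATP synthase, 9. The list is a selection: 25 other nuclear complex I subunits and 7 other ATP synthase subunits or inhibitors were followed beside it as context.

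The respiratory chain sits in the inner mitochondrial membrane. Complex I takes electrons from NADH and complex II takes them from succinate, and both pass them to ubiquinone. Complex III hands them on to cytochrome c and complex IV reduces oxygen, while protons pumped on the way drive the ATP synthase. Most subunits come from nuclear genes and must be assembled with a small set made from mitochondrial DNA. In C. elegans, lowered activity of several of these subunits is known to slow development and, for some genes and RNAi treatments, to lengthen life.

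The libraries came from whole N2 hermaphrodites, the laboratory wild-type strain, and the labels name no mutant allele or transgene. Worms received either L4440, the empty RNAi vector used as control, or RNAi against bcat-1, which encodes the branched-chain amino acid aminotransferase, and were collected at a labelled age of 1 day or 2 days. Each of the 4 groups had 3 libraries, made from total RNA with a TruSeq RNA kit that does not keep strand, and totals ranged from 29291731 to 43855795 counts. The labels do not say whether libraries of a group came from separate cultures, so p-values measure the spread between these libraries.

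One library went against its label. Levels are given in CPM, that is, counts scaled to a common library total with edgeR's TMM factors. Those of the RNAi target bcat-1 at day 1 were 179, 175 and 156 CPM in the control libraries and 19.5, 18.01 and 27.1 CPM in the RNAi libraries. At day 2 they were 139.9, 157 and 117 CPM in controls, against 13.9, 17.3 and 329 CPM in those labelled as RNAi. The library labelled bcat-1 day 2 replicate 3 was therefore above every control library for the gene that the RNAi targets. In that library 41.5% of counts fell on ribosomal RNA genes, against 6.74% in L4440 day 2 replicate 3 and 0.0675% to 2.49% in the other 10. Without it, the log2 difference of bcat-1 on its RNAi was -3.0 at day 1 (edgeR adjusted p = 2.24e-05) and -3.15 at day 2 (adjusted p = 8.52e-05). With it, the day 2 difference was -0.21 (edgeR adjusted p = 0.952). The comparisons that rest on this library are given with it and without it, and the part of its ribosomal RNA content was not tested. The 36 genes took 1.04% to 1.19% of counts in the other 11 libraries and 0.599% in this one. Of counts outside ribosomal RNA genes they took 1.05% to 1.2% in the other 11 and 1.02% in this one. Markers of germline, body wall muscle, intestine, epidermis and neurons were all detected, while 10 of 12 sperm markers stayed below the low-count filter.

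Read counts passed the filter on low values for 35 of the 36 genes. The exception was cyc-2.2, one of a pair of genes for cytochrome c, the soluble carrier between complexes III and IV. It had 13 reads over all 12 libraries, none in 6 of them and at most 5 in any. The floor of 3 reads stood for 0.0663 to 0.153 CPM depending on the library, and this limit covers counting error only. Its partner cyc-2.1 had 168525 reads. In level per length, as RPKM (the CPM divided by kilobases of exon), cyc-2.1 was the third most abundant of the 36 at a mean of 709.6 RPKM (568 to 822), where the brackets here and below hold the lowest and highest of the 12 libraries.

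**Figure D1:**
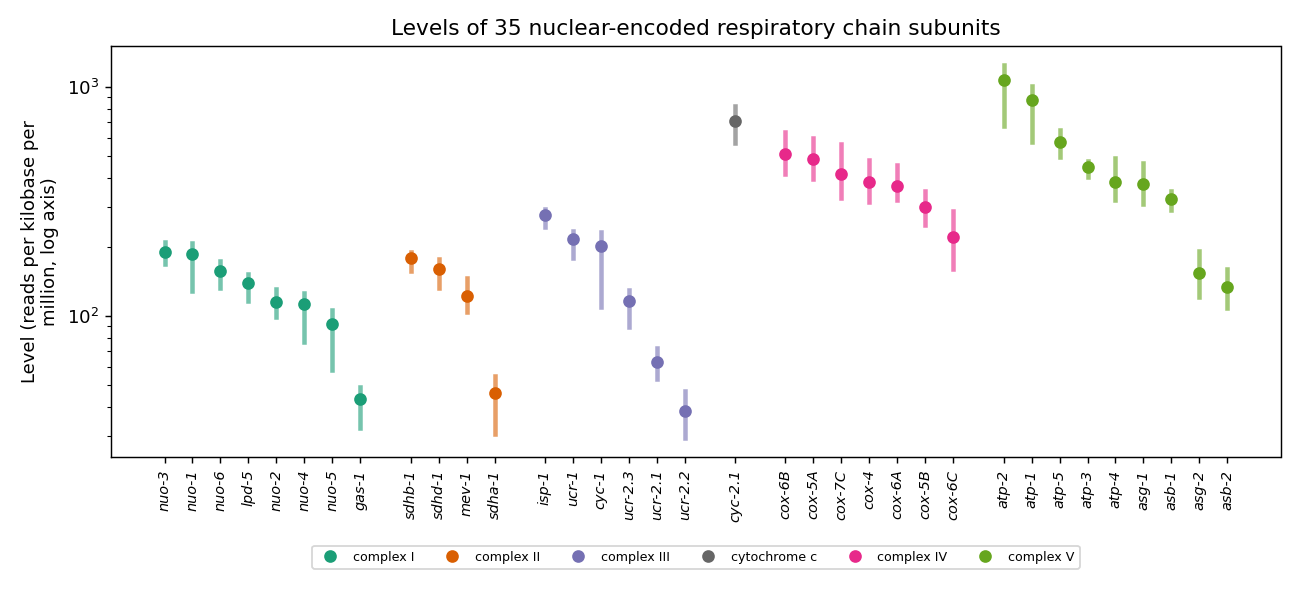
Level of each of the 35 tested genes in RPKM on a log axis, grouped by complex. Dots are means and bars run from the lowest to the highest of the 12 libraries. The highest is atp-2 at 1075 RPKM, ucr-2.2 is the lowest of the 35 tested genes at 38.5 RPKM, and cyc-2.2 is not drawn.

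Among the listed genes, the 9 ATP synthase subunits had the highest summed level of the complexes, at 4307 to 6404 CPM over the 12 libraries, and the first and second most abundant genes. The catalytic beta subunit atp-2 had a mean of 1075 RPKM (675 to 1251) and the alpha subunit atp-1 of 878 RPKM (575 to 1007). The peripheral stalk subunits followed, with atp-5 (subunit d) at 573 RPKM (493 to 646), atp-3 (the oligomycin sensitivity protein) at 446 RPKM (403 to 472) and atp-4 (coupling factor F6) at 383 RPKM (319.8 to 489). Both genes for subunit g, which sits in the membrane part, were expressed, asg-1 at 377 RPKM (308 to 463) and asg-2 at 153 RPKM (121 to 192). The same held for subunit b of the stalk, with asb-1, described as a germline isoform in this worm, at 325 RPKM (291 to 352) and asb-2 at 134 RPKM (108 to 159.7).

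In CPM, atp-1 had 2046, 1939 and 1893 on L4440 and 1811, 1998 and 1967 on bcat-1 RNAi at day 1, and 1754, 1860.2 and 1881 on L4440 and 1529, 1557 and 1167 on bcat-1 RNAi at day 2. For atp-2, singled out after its values were seen, the same order of groups gave 2413, 2236 and 2187, then 1997, 2327 and 2287, then 2029, 2223 and 2207, then 1779.7, 1892 and 1303. In both genes the groups overlapped at day 1, the bcat-1 RNAi libraries lay below all others at day 2, and the library labelled bcat-1 day 2 replicate 3 was the lowest of 12. Subunit b gave 356, 338 and 346, then 335, 315 and 349.8, then 299, 362 and 349.9, then 299, 348 and 305 CPM for asb-1 in that order. For asb-2 they were 163, 189 and 160.2, then 173, 178 and 166, then 163, 139 and 147, then 147, 128 and 141.8 CPM. The asb-1 groups all overlapped, and asb-2 was lower at day 2 than at day 1 in every bcat-1 RNAi library. Subunit g gave 179, 180.3 and 174, then 220.5, 186 and 171, then 151, 184 and 174, then 147, 172 and 216 CPM for asg-1. Values of asg-2 were 75.6, 89.6 and 77.3, then 95.3, 89.7 and 79.7, then 67.9, 65.2 and 66.7, then 59.9, 61.6 and 86.1 CPM. On L4440 asg-2 was lower at day 2 in all 3 libraries, and the library labelled bcat-1 day 2 replicate 3 was the highest of its group for both genes.

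Complex IV, cytochrome c oxidase, followed with a sum of 1370.3 to 2073 CPM for 7 genes. The nuclear subunits on the list surround a core made from mitochondrial DNA. The highest was cox-6B, whose counterpart in mammals faces the intermembrane space, at 511 RPKM (416 to 635), followed by cox-5A at 486 RPKM (396 to 597), cox-7C at 417 RPKM (327 to 565) and cox-4 at 385 RPKM (313 to 478). Next came cox-6A at 370.4 RPKM (322 to 456), cox-5B, a zinc-binding subunit in mammals, at 299 RPKM (249 to 350.2) and cox-6C at 221 RPKM (160.4 to 287). For cox-5A the CPM were 379.7, 388 and 376 on L4440 at day 1, 444, 388 and 360.1 on bcat-1 RNAi at day 1, 335, 351 and 346 on L4440 at day 2 and 295, 316 and 360.1 on bcat-1 RNAi at day 2. For cox-6C, in the same order, they were 86.5, 95.3 and 92.2, then 115, 103.6 and 90.7, then 72.8, 74.5 and 79.6, then 64.2, 77.4 and 107 CPM. The small subunit cox-7C gave 158, 182 and 161, then 219.9, 197 and 158, then 138, 153 and 140.3, then 127, 136 and 177 CPM. In all 3 genes L4440 libraries were lower at day 2 than at day 1 with no overlap. On bcat-1 RNAi, day 1 replicate 1 and the library labelled bcat-1 day 2 replicate 3 were the highest of their groups.

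In complex III, isp-1, the Rieske iron-sulfur protein, had the highest level at 276 RPKM (243 to 293). The core protein ucr-1 was at 217 RPKM (179 to 234.98) and cytochrome c1, encoded by cyc-1, at 203 RPKM (109 to 232). The second core protein has 3 genes on the list, with ucr-2.3 at 116 RPKM (89.6 to 130.1), ucr-2.1 at 62.7 RPKM (53.1 to 72.7) and ucr-2.2 at 38.5 RPKM (29.2 to 47.0). In CPM, ucr-1 had 403, 395 and 387 on L4440 and 374, 399 and 382 on bcat-1 RNAi at day 1, then 356, 379.7 and 385 and 339, 349.6 and 307 at day 2. At day 2 its bcat-1 RNAi libraries all lay below those on L4440. The least abundant, ucr-2.2 (WBGene00011679, chromosome X, positions 15173904 to 15178145 in WBcel235), had 63.1, 67.6 and 56.0 CPM in controls and 60.02, 66.7 and 61.5 CPM in RNAi libraries at day 1. At day 2 it had 51.9, 50.1 and 50.9 CPM on L4440 and 50.7, 43.2 and 42.0 CPM on bcat-1 RNAi, so that every day 2 library was below every day 1 library. For ucr-2.1 the CPM were 93.0, 95.6 and 95.6, then 95.7, 104.2 and 96.1, then 93.4, 78.5 and 79.3, then 92.1, 77.4 and 76.1 in the order L4440 day 1, bcat-1 day 1, L4440 day 2, bcat-1 day 2. For ucr-2.3 that order gave 173, 158 and 167, then 165, 176 and 164, then 139.5, 165 and 159, then 137, 157 and 121 CPM. Day 1 and day 2 overlapped on L4440 in both, and did not overlap on bcat-1 RNAi.

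Between these complexes, cyc-2.1 carried 399, 408 and 429 CPM in controls and 451, 426 and 417 CPM in RNAi libraries at day 1, then 341, 368 and 374 CPM and 312, 369 and 382 CPM at day 2. Every day 2 library was below every day 1 library, while L4440 and bcat-1 RNAi overlapped at each day.

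In mean level per length, the listed complex I subunits all lay below cyc-1 of complex III, which was at 203 RPKM. Among them nuo-3, the counterpart of human NDUFA6, was at 189 RPKM (168 to 211), and nuo-1, the NADH-binding flavoprotein, at 186 RPKM (129 to 208). The gene model of nuo-3 overlaps that of another annotated gene over 783 of its 1078 exon bases, so reads there could come from either gene. That other gene was recorded with 0 reads, a value also given to genes that the count table lacks. The part of the overlap in the level of nuo-3 was not tested. The accessory subunits nuo-6, lpd-5 and nuo-4 were at 156 RPKM (132 to 173), 139 RPKM (116 to 153) and 112 RPKM (77.0 to 126). Of the core subunits, nuo-2 was at 115 RPKM (98.6 to 131), nuo-5, the iron-sulfur subunit next to NADH oxidation, at 92.5 RPKM (57.8 to 106), and gas-1, a subunit near the ubiquinone site, at 43.3 RPKM (32.3 to 49.1). The gas-1 paralog nduf-2.2, which is not on the list, was higher at 84.8 RPKM (66.4 to 93.8). For gas-1 (WBGene00001520, chromosome X, positions 15586786 to 15590397) the CPM were 80.0, 78.9 and 73.5 on L4440 and 77.2, 82.9 and 79.7 on bcat-1 RNAi at day 1, and 76.7, 70.4 and 72.5 and 67.7, 63.0 and 54.5 at day 2. The bcat-1 RNAi libraries at day 2 were the 3 lowest of the 12. For nuo-2 the CPM were 108, 111 and 112, then 120.2, 114 and 112, then 95.1, 104.3 and 101, then 90.7, 101 and 104.1 in the order L4440 day 1, bcat-1 day 1, L4440 day 2, bcat-1 day 2. For nuo-5 they were 256, 239 and 257, then 211, 260.1 and 257, then 214, 241 and 229, then 198, 209 and 141 CPM. Day 2 lay below day 1 in nuo-2 in both treatments, and in nuo-5 the library labelled bcat-1 day 2 replicate 3 was the lowest of 12.

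Complex II, succinate dehydrogenase, is wholly encoded in the nucleus. Its iron-sulfur subunit sdhb-1 was at 179.6 RPKM (157 to 191) and its membrane anchors sdhd-1 and mev-1 at 159.8 RPKM (133 to 178) and 121 RPKM (104.04 to 146). The flavoprotein sdha-1, which binds succinate, was at 45.8 RPKM (30.6 to 54.7). Its paralog sdha-2, which is not on the list, was higher at 88.9 RPKM (68.9 to 100.6). For sdha-1 the CPM were 116, 112 and 107 on L4440 and 96.0, 114 and 114 on bcat-1 RNAi at day 1, and 131, 110.4 and 123 and 117, 105 and 73.4 at day 2. Its groups overlapped in every comparison, and its lowest value again came from the library labelled bcat-1 day 2 replicate 3. For mev-1 the CPM were 91.5, 96.8 and 89.4 and 106, 103.8 and 87.3 at day 1, and 79.5, 85.8 and 82.9 and 75.7, 83.4 and 78.8 at day 2, in the same order of treatments. All 6 day 2 libraries were below all 6 day 1 libraries for mev-1.

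**Figure D2:**
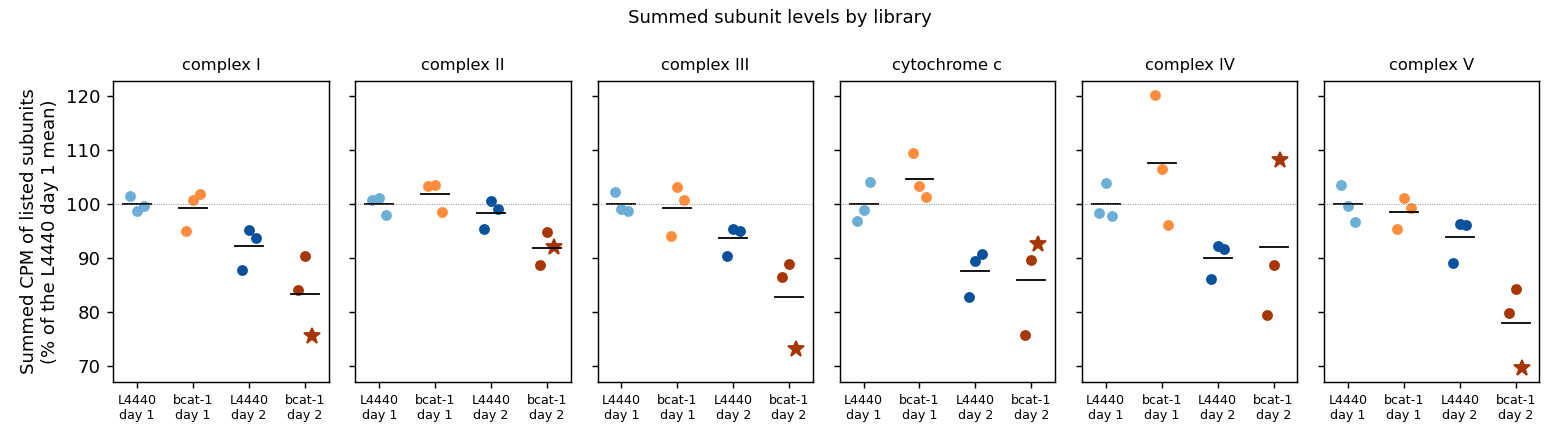
Summed CPM of the listed subunits of each complex, as percent of the mean of L4440 day 1. Points are libraries, lines are group means of 3, and the star is the library labelled bcat-1 day 2 replicate 3; day 2 lies below day 1 in most complexes, and the starred library is the highest of its group for complex IV and the lowest for complexes I, III and V.

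The first question was whether bcat-1 RNAi altered these genes at day 1. It did not to a degree that the test could call. None of the 35 genes tested passed an adjusted p of 0.05 in edgeR's quasi-likelihood test, and none reached an unadjusted p of 0.05. Over all 14567 genes tested, 0 were called, which is 0%, with 297 at an unadjusted p under 0.05, 16 called by DESeq2 and 0 by limma-voom. The 35 log2 differences ran from -0.08 for nuo-4 to 0.20 for cox-7C (95% interval -0.10 to 0.51), with 25 above 0 and a median of 0.02, beside 0.01 for all genes. Below 0 were 28.6% of the 35 and 46.0% of all genes. By complex the medians were 0.02 for complex I, 0.04 for complex II, 0.01 for complex III, 0.12 for complex IV and 0.01 for complex V, and cyc-2.1 was at 0.07. The 7 complex IV values were all positive, between 0.06 and 0.20. The 95% intervals reached at most 0.40 to either side of a gene's estimate, with a median reach of 0.21. The only gene whose treated libraries all lay on one side of the controls was ucr-2.1, higher, 2.86% of the 35 against 5.85% of all genes tested that lay wholly higher and 4.65% wholly lower. Without the library labelled bcat-1 day 2 replicate 3, which enters this comparison only through the shared spread, scaling and filter, still 0 of the 35 were called, against 0.00672% of all genes. In bulk RNA from whole worms, fewer cells of a type and less RNA per cell cannot be told apart, here and in every comparison below.

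At day 2 no subunit gene passed the test either, and the lowest estimates were those of genes with 1000 or more exon bases, from complexes I, II, III and V. Of all genes tested, 0.419% were called (61 genes, 31 of them lower, or 0.213%). In edgeR 5 of the 35 had an unadjusted p under 0.05, beside 1051 of all 14567 genes. The 5 were atp-1, atp-2, gas-1, nuo-5 and ucr-1, all lower on bcat-1 RNAi, and neither DESeq2 nor limma-voom called any of the 35. The lowest values were those of the catalytic ATP synthase subunits, at -0.38 (SE 0.13, adjusted p = 0.451, edgeR) for atp-2 and -0.37 (SE 0.11, adjusted p = 0.310) for atp-1 on the log2 scale. Cytochrome c1 (cyc-1) was at -0.34, nuo-5 at -0.32, sdha-1 at -0.30, gas-1 at -0.24 and ucr-1 at -0.17, with edgeR adjusted p between 0.456 and 0.758. The smallest p of complex IV belonged to cox-5A, at -0.09 (adjusted p = 0.827, edgeR). The median was -0.07 over the 35, beside -0.02 over all genes, with 25 of 35 negative, against 53.1% of all genes.

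These day 2 values depended on the library that goes against its label. With all libraries the medians were -0.16 for complexes I and III, -0.05 for complex II, -0.09 for complex V and 0.08 for complex IV. Without that library they were -0.09, -0.12, -0.11 and -0.14 for complexes I, III, II and V, and the sign turned to -0.10 for complex IV. Then 34 of 35 were negative, the overall median was -0.10, atp-1 stood at -0.26 and still 0 of the 35 were called, with 0.336% of all genes called. Treated libraries all lay below the controls for 6 of 35 genes (17.1%), against 4.24% of all genes: nuo-5, gas-1, cyc-1, ucr-1, atp-1 and atp-2. They lay wholly above for 0 of the 35, against 6.52%. Without the library that goes against its label, they lay wholly below for 10 of the 35 (28.6%), against 7.06%.

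Averaged over both days, the bcat-1 RNAi difference had a median of -0.02 over the 35 genes and of 0.0012 over all genes, and 0 of the 35 were called, against 0.343% of all genes (0.165% higher, 0.178% lower). In edgeR the unadjusted p was under 0.05 for 2 of the 35, atp-1 at -0.20 (adjusted p = 0.698) and atp-2 at -0.21 (adjusted p = 0.767), beside 917 of all 14567 genes. Within their complexes nuo-5, sdha-1, ucr-1 and cox-6C had the smallest p, at -0.18, -0.17, -0.10 and 0.15. Without the doubtful library the median was -0.05 and 29 of 35 were negative, with 0 called among the 35 and 0.396% among all genes.

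The difference of the bcat-1 RNAi effect between the days was tested in its own right. It was negative, meaning lower at day 2 than at day 1, for 33 of 35 genes, against 56.6% of all genes. The median over the 35 was -0.10, beside -0.03 for all genes. None of the 35 was called, as was none of all genes (0%), and in edgeR 1 of the 35, gas-1, had an unadjusted p under 0.05, with a difference of -0.29 (SE 0.12, 95% interval -0.56 to -0.02, adjusted p = 1.000). Of all 14567 genes, 385 had an unadjusted edgeR p under 0.05. Without the doubtful library 34 of 35 were negative, with a median of -0.14, and again 0 were called.

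The comparison of day 2 with day 1 on L4440 asked how the subunit genes stood at the later age without the RNAi. In the control worms 34 of the 35 tested genes had a negative estimate, against 50.2% of all genes. None of the 35 was called in edgeR, against 2.3% of all genes (1.29% called lower, 1.01% higher). The median was -0.11 on the log2 scale, beside -0.0010 for all genes, and the range ran from -0.29 for ucr-2.2 to 0.12 for sdha-1, the single positive value. Only ucr-2.2 (SE 0.09, adjusted p = 0.124) and lpd-5, at -0.22 (adjusted p = 0.209), had an unadjusted edgeR p under 0.05. That was so for 2632 of all 14567 genes. The medians were -0.13 for complex I, -0.04 for complex II, -0.09 for complex III, -0.15 for complex IV and -0.08 for complex V, with cyc-2.1 at -0.19. For 19 genes (54.3%) all 3 day 2 libraries lay below all 3 day 1 libraries, against 13.1% of all genes tested. None of the 35 lay wholly above, against 11.7% of all genes. Complex IV had 6 of its 7 among the 19, all but cox-6A.

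On bcat-1 RNAi the same comparison called 2 of the 35 genes, both lower at day 2, against 4.07% of all genes (2.06% called lower, 2.01% higher). The complex III core protein gene ucr-2.2 fell by 0.47 on the log2 scale (SE 0.09, 95% interval -0.68 to -0.26, edgeR adjusted p = 0.0172). The complex I gene gas-1 fell by 0.37 (SE 0.09, 95% interval -0.56 to -0.18, adjusted p = 0.0348). All 35 estimates were negative, against 50.7% of all genes. The 35 ran from -0.47 to -0.04 with a median of -0.23, beside -0.0050 for all genes. In edgeR 19 of the 35 had an unadjusted p under 0.05, beside 2720 of all 14567 genes. Just outside the threshold were atp-1 at -0.44 (adjusted p = 0.0509, edgeR), nuo-6 at -0.29 (adjusted p = 0.0540) and mev-1 at -0.32 (adjusted p = 0.0606). The smallest difference was that of nuo-3, at -0.04. Complex medians were -0.26 for I, -0.13 for II, -0.28 for III, -0.23 for IV and -0.22 for V, with cyc-2.1 at -0.28. Day 2 lay wholly below day 1 for 19 genes (54.3%), against 9.95% of all genes, and wholly above for 0, against 11.1%.

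**Figure D3:**
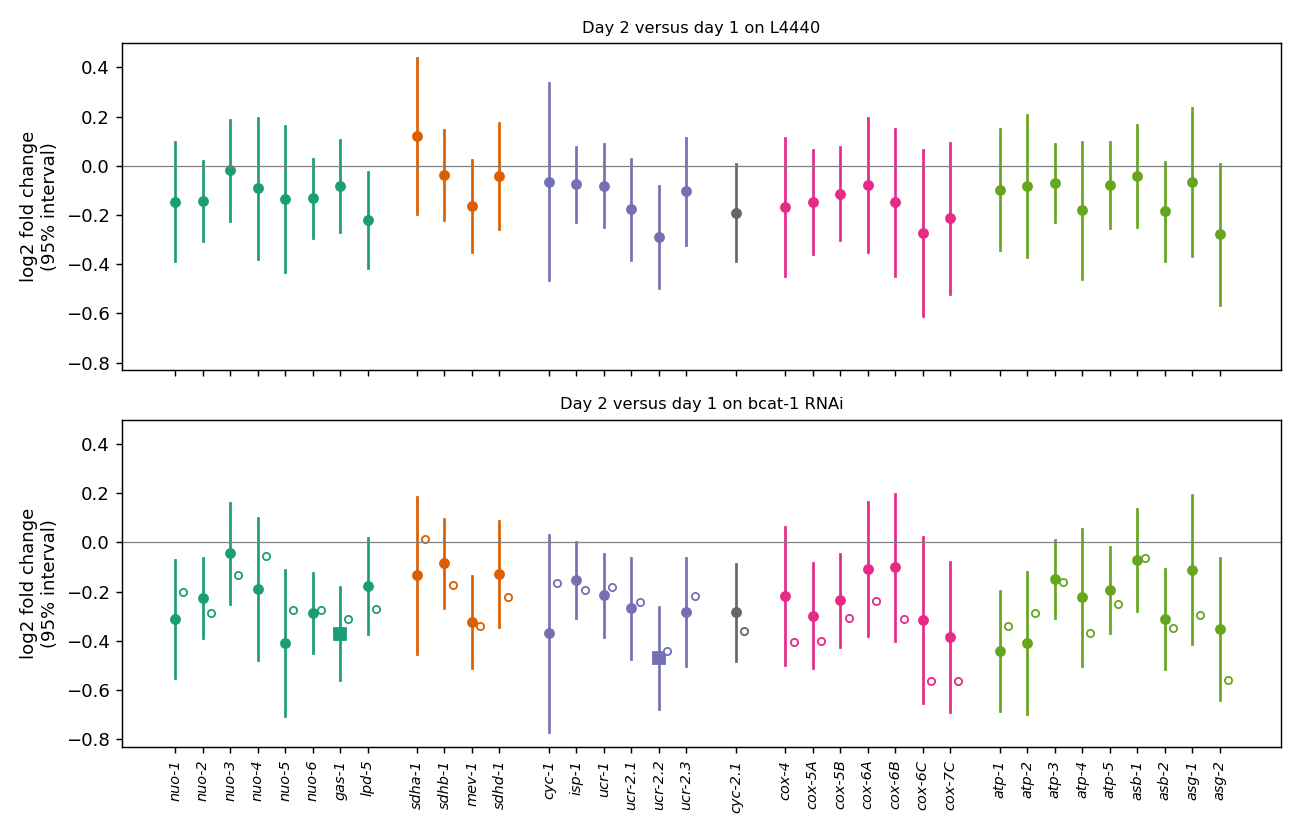
Log2 difference of day 2 against day 1 for the 35 tested genes, with 95% intervals; the upper panel shows L4440 and the lower panel bcat-1 RNAi. Squares are genes past the test, which are ucr-2.2 and gas-1 in the lower panel, and open circles give the estimate without the library labelled bcat-1 day 2 replicate 3; with all libraries, every estimate but that of sdha-1 on L4440 lies below 0.

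Leaving out the library that goes against its label, 6 of the 35 genes were called lower at day 2 on bcat-1 RNAi, against 4.37% of all genes (2.77% called lower). They were asg-2 at -0.56 (edgeR adjusted p = 0.00655), cox-6C at -0.56 (0.0182), cox-7C at -0.56 (0.0310), ucr-2.2 at -0.44 (0.0291), cox-5A at -0.40 (0.0354) and gas-1 at -0.31 (0.0397). The median over the 35 was then -0.28, that of complex IV was -0.40, and sdha-1 alone was positive, at 0.01. Day 2 lay wholly below day 1 for 27 genes, against 16.4% of all genes. Over the 22 alternative settings the call of ucr-2.2 was kept in 16 and that of gas-1 in 10. Across all 22, kept or lost, the adjusted p of each setting's own test ran from 0.000187 to 0.261 for ucr-2.2. For gas-1 it ran from 0.00139 to 0.411. Leaving out replicate 2 or 3 of bcat-1 day 1 or replicate 2 of bcat-1 day 2 ended both calls, and gas-1 also lost its call without replicate 1 of bcat-1 day 1 and without replicates 1 or 2 of L4440 day 1 or replicate 3 of L4440 day 2.

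Length of the gene model moved with the values of single libraries. Of the 35 genes, 18 have under 1000 exon bases, among them all 7 of complex IV, and 17 have 1000 or more, among them atp-1, atp-2, gas-1 and nuo-5. For the library with the high ribosomal share, the shorter genes had a median deviation of 0.23 on the log2 scale from the mean of the other 2 libraries of the group and the longer genes one of -0.26. Across the 35 genes the Spearman correlation of deviation with exon length was -0.88 there and -0.86 in replicate 1 of bcat-1 day 1. Each deviation is taken from the other 2 libraries, so those of a group offset each other and a slope cannot be assigned to 1 library. In the remaining libraries of those groups the correlation was 0.52 to 0.87. On L4440 it was 0.79, -0.54 and -0.06 at day 1 and between -0.21 and 0.18 at day 2. These are descriptions across genes, which share a library and are not independent, and over 14457 genes the first of these was -0.59. For bcat-1 RNAi at day 2 the shorter genes had a median of 0.01 (0.12 for all genes of that length) and the longer ones -0.17 (-0.07 for all). Without the library labelled bcat-1 day 2 replicate 3 these medians were -0.10 and -0.13. For day 2 against day 1 the medians were -0.15 (shorter) and -0.08 (longer) on L4440, and -0.22 and -0.28 on bcat-1 RNAi. On bcat-1 RNAi their order turned without the library that goes against its label, to -0.31 (shorter) and -0.20 (longer). The part of length in the differences was not tested.

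**Figure D4:**
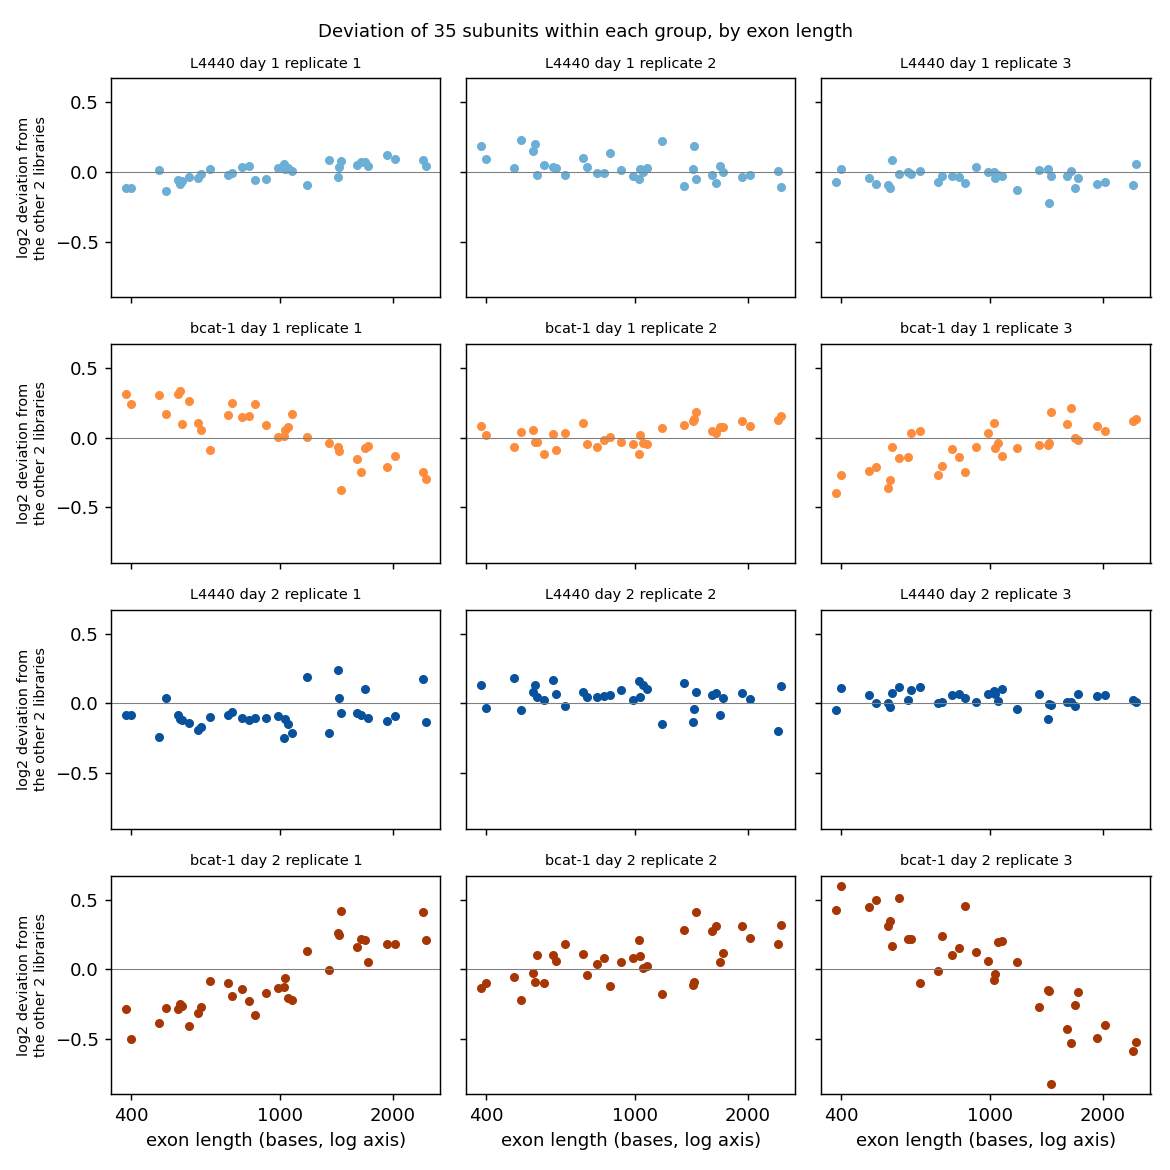
Deviation of each of the 35 tested genes from the mean of the other 2 libraries of its group, in log2, against exon length, with 1 panel per library. Short genes lie high and long genes low in replicate 1 of bcat-1 day 1 and in replicate 3 of bcat-1 day 2. The other libraries of those groups take the opposite slope. Since the deviations of a group offset each other, the slope cannot be assigned to 1 library. The L4440 day 2 panels are nearly flat.

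Of the 35 genes, 6 are on chromosome X: sdha-1, gas-1, ucr-2.1, ucr-2.2, asb-2 and asg-2. The median of day 2 against day 1 was -0.18 for these 6 and -0.10 for the 29 autosomal genes on L4440, and -0.33 and -0.22 on bcat-1 RNAi. Without the library that goes against its label the last 2 were -0.33 and -0.28. All tested X-linked genes had medians of 0.10 and 0.06 in those comparisons, and all autosomal genes -0.012 and -0.017.

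Paralog pairs were compared as ratios within each library, which do not depend on scaling between libraries. In level per length asb-1 exceeded asb-2 by 2.04-fold to 3.14-fold over the 12 libraries, asg-1 exceeded asg-2 by 2.1-fold to 2.95-fold, ucr-2.1 exceeded ucr-2.2 by 1.42-fold to 1.83-fold and ucr-2.3 exceeded ucr-2.2 by 2.49-fold to 3.87-fold. The order within each pair was thus the same in every library. The mean log2 ratio of asg-1 to asg-2 was 1.203 on L4440 and 1.18 on bcat-1 RNAi at day 1, and 1.41 and 1.43 at day 2. For ucr-2.1 to ucr-2.2 it was 0.62 and 0.66 at day 1, and 0.72 and 0.86 at day 2. On bcat-1 RNAi these 2 ratios were higher in every day 2 library than in every day 1 library, by 0.25 and 0.20 in the mean, and by 0.27 and 0.20 without the library that goes against its label, again with no overlap. Over 16 two-sided exact permutation tests the smallest p was 0.1, the smallest that 3 against 3 libraries allow, and 0.64 after Benjamini-Hochberg adjustment over the 16. The remaining pair of cytochrome c genes gave no ratio because cyc-2.2 was at or near 0 reads.

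**Figure D5:**
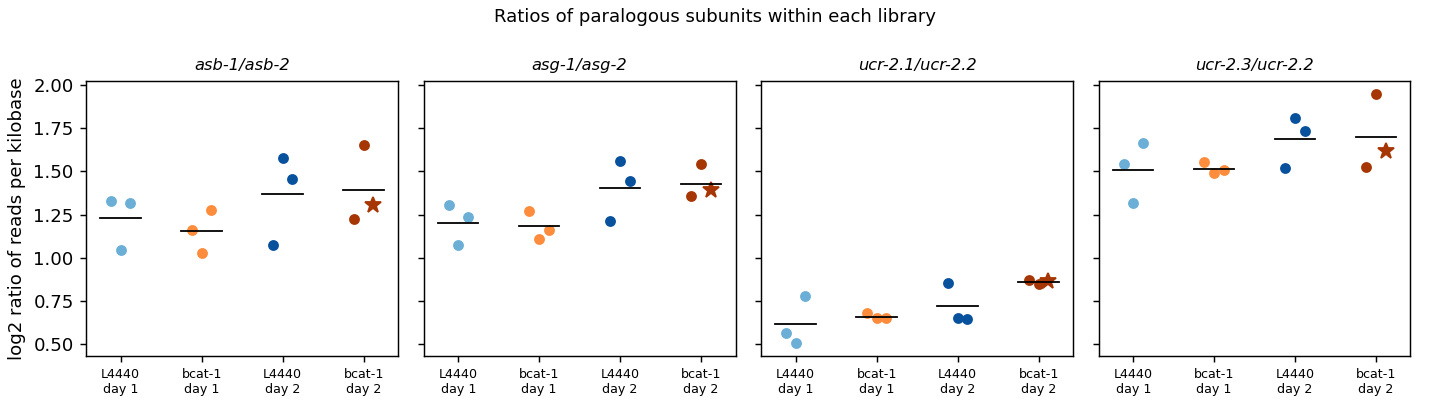
Log2 ratio of level per length for 4 paralog pairs, with 1 point per library and lines at group means of 3 libraries. All ratios lie above 0, so the first gene of each pair is higher in every library, and the ratios of asg-1 to asg-2 and of ucr-2.1 to ucr-2.2 lie higher at day 2 than at day 1 on bcat-1 RNAi without overlap.

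Further mitochondrial genes were read from the same fits. The 25 other nuclear complex I subunits all had negative estimates for day 2 against day 1 in both treatments, with medians of -0.15 on L4440 and -0.22 on bcat-1 RNAi. Of these, 0 were called on L4440 (2.3% of all genes) and 2 on bcat-1 RNAi (8%, against 4.07% of all genes), where nduf-7 fell by 0.38 (adjusted p = 0.0113, edgeR) and ndub-11 fell by 0.38 (adjusted p = 0.0182). The CPM of nduf-7 were 146, 141.5 and 135 at day 1 and 105, 114 and 105 at day 2 on bcat-1 RNAi, and those of ndub-11 were 124, 121 and 122 and 86.0, 99.98 and 95.8, with no overlap in either. Without the library that goes against its label 4 were called lower (4.37% of all genes called, 2.77% called lower), nduv-3, nduf-7, ndub-11 and ndub-7. All 7 other ATP synthase subunits and inhibitors were negative as well in both comparisons, with 0 called. Without that library 2 of them, hpo-18 and mai-2, were called on bcat-1 RNAi, against 4.37% of all genes. The 12 assembly factors, 8 ubiquinone synthesis genes, 11 mitochondrial chaperone and stress genes and 2 ADP/ATP carrier genes that could be tested had 0 called in any of the 6 comparisons.

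The 12 protein genes of mitochondrial DNA, whose products join these subunits in complexes I, III, IV and V, were read beside them. On L4440, 10 of 12 had negative estimates at day 2 (median -0.07), and on bcat-1 RNAi 8 of 12 had positive ones (median 0.09), with 0 called in either. Without the library labelled bcat-1 day 2 replicate 3 the latter median was -0.11. Their summed CPM relative to that of the 36 nuclear genes was 0.433 to 0.513 in the 9 libraries of the other groups and 0.562, 0.527 and 0.744 in bcat-1 day 2. That group stood above the rest for this ratio, and its highest value came from the library that goes against its label. Its sums for mitochondrial DNA were 5256, 5263 and 6699 CPM, against 5048 to 5852 CPM in the other groups. Its sums for the nuclear genes were 9352, 9994 and 9007 CPM, against 10192 to 11768 CPM.

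Markers of cell types moved with age as well. The summed CPM of 12 body wall muscle markers was 2447 to 3058 at day 1 and 1532 to 2375 at day 2, and 3 were called lower on L4440 and 4 on bcat-1 RNAi (tnt-2, unc-27, pat-10 and lev-11), against 1.29% and 2.06% of all genes. For 11 intestine markers it was 3329 to 3840 at day 1 and 2436 to 2677 at day 2, with 1 called lower on L4440 and 4 on bcat-1 RNAi. The 16 germline and oocyte markers summed to 7768 to 9964 over all libraries with 0 called and medians of 0.03 and -0.10 in the 2 age comparisons. The 12 neuron markers summed to 374 to 456 CPM with 0 called, and of 11 epidermis markers 1 was called lower in each age comparison. On bcat-1 RNAi, leaving out the library that goes against its label gave 4 muscle, 4 intestine, 1 epidermis, 0 germline and 0 neuron markers called. All of these were lower, and 2.77% of all genes were called lower in that fit. The subunit genes, at 11241 to 11768 summed CPM at day 1, were at 10192 to 10976 on L4440 and 9007 to 9994 on bcat-1 RNAi at day 2. The part of these cell types in the subunit differences was not tested.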

How the data were processed

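Gene counts from the 12 libraries were used as deposited; per the submitters' processing notes, bcl2fastq 1.8.4, STAR 2.4.1d, featureCounts 1.4.6-p4 and build WBcel235 were used, with settings not given in the sources used here. The authors' second table, of values per length, was not used. Counts were analysed with edgeR 4.0.16 in R 4.3.3, with TMM scaling, its low-count filter (14567 of 46748 genes kept), 1 mean per group over 12 libraries and a quasi-likelihood test. P-values were adjusted by the Benjamini-Hochberg method across every gene kept, and 0.05 was the threshold. DESeq2 1.42.0, limma-voom (limma 3.58.1), other scalings and filters, and leaving out each library were alternatives. Of the scripts, only the edgeR fit was tried on simulated counts, in the comparison of bcat-1 RNAi with L4440 at day 2. RPKM was computed from union exon lengths of the Ensembl WBcel235 annotation. Replicates were numbered in order of deposit. Members and gene lists were chosen with earlier results of these data known. Values in each library are given for genes called, genes of smallest p per complex in the bcat-1 RNAi comparisons, and paralogs. Precision is limited by 3 libraries per group.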

Additional observations from a re-analysis of the deposited data

How the results depend on the processing

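Under every alternative run, 0 of the tested subunit genes were called in the 5 comparisons other than day 2 against day 1 on bcat-1 RNAi. There 2 were called, beside 593 of all 14567 genes, and brackets below hold this count for each setting. With library size as the only scaling 0 were called (244 of 14567), and 0 with only the groups compared in the fit (222 of 13983). It was 1 with no filter on low counts (36 subunit genes tested, 690 of 25099 in all). A stricter filter gave 4 (534 of 11467) and DESeq2 gave 9 (1021 of 14567). Leaving out each library in turn gave 0 to 6, beside 229 to 657 of all genes. RLE factors (600 of 14567) and leaving out ribosomal RNA genes (579 of 14710) gave ucr-2.2 and gas-1 again. To these limma-voom added atp-1 (593 of 14567). Upper-quartile factors also gave 2, but ucr-2.2 and atp-1 (503 of 14567). Leaving out both libraries high in ribosomal RNA gave asg-2 and cox-6C (516 of 14902), with ucr-2.2 and gas-1 no longer called. The cause of these changes was not tested. The median over the subunit genes in that comparison, -0.23, lay between -0.36 and -0.16 over all these settings, and on L4440 the median of -0.11 lay between -0.16 and -0.08. Paralog ratios without overlap numbered 2 of 16, and 2 to 6 when a library was left out. No estimate of a result that had passed its test changed sign. Over all genes the counts called at day 2 for bcat-1 RNAi, 61, ranged from 0 to 195, and those of day 2 against day 1 from 79 to 1017 on L4440 and from 222 to 1021 on bcat-1 RNAi. No paired analysis was possible because the labels carry no replicate numbers that groups share. With 3 libraries a group, the 95% interval of a subunit gene's log2 difference reached a median of 0.21 to either side in each comparison of 2 groups, and of 0.15 for the averaged effect.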
